A study of Mus musculus with 16 samples.

Results

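Of the 54532 genes in the deposited tables, 9 were followed here. They are Klf2, Klf3, Klf4, Klf6, Klf7, Klf10, Klf11, Klf13 and Klf16, Krüppel-like factor genes other than Klf9. They were picked by symbol and matched to their Ensembl identifiers through a mouse gene annotation. All 9 passed the filter on low values, which asked for 1 FPKM or more in 4 or more of the 16 libraries and kept 11654 genes, Klf9 and Klf15 among them. FPKM counts fragments per kilobase of exon and corrects for depth, so levels can be set side by side between genes.

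Krüppel-like factors are transcription factors that bind GC-rich and CACCC sequences through zinc fingers at their C-terminal end, next of kin to the SP factors. They fall into groups by the partners of their N-terminal ends. Klf2, Klf4, Klf6 and Klf7 mostly activate genes through acetyltransferases such as CBP and p300, Klf3 represses through the corepressor CtBP, and Klf10, Klf11, Klf13 and Klf16 recruit the corepressor Sin3a, as Klf9 does. In macrophages and their precursors, KLF4 drives monocyte differentiation and alternative activation, KLF2 restrains inflammatory activation and KLF6 favours it. Klf9 is a well-known direct target of the glucocorticoid receptor.

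RNA was sequenced from cultures of mouse bone marrow-derived macrophages, all of strain FVB/N, in 4 groups of 4 libraries. Cells of genotype FOXO3-/- (the Foxo3 knockout) received dexamethasone, a synthetic ligand of the glucocorticoid receptor, at 100 nM, or the vehicle DMSO, each for 24 h, and wild-type cells received the same. All groups had been grown from flushed marrow in medium conditioned by L929 fibroblasts, a source of macrophage growth factor. By its title the series asks what the forkhead factor FOXO3 does to glucocorticoid receptor signalling. The age of the animals, the part of Foxo3 that is deleted and whether replicates came from separate animals are not stated in the labels. Every p-value therefore sets a difference against a spread among libraries that may be technical.

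Recovered reads on genes came to between 16886745 and 20584573 per library. Foxo3 itself measured 22.9 to 26.4 FPKM in knockout dexamethasone libraries, 23.2 to 24.7 FPKM in knockout vehicle libraries, 21.9 to 24.2 FPKM in wild-type dexamethasone libraries and 22.9 to 26.4 FPKM in wild-type vehicle libraries. A value over all exons need not fall when part of a gene is lost, so the genotypes rest on the labels. The macrophage markers Adgre1 and Csf1r were high in every group, and 10 macrophage markers together held 10196 to 16400.2 FPKM per library. Fibroblast transcripts were uneven. The collagen gene Col1a1 stood at 1.18 to 25.5 FPKM in knockout dexamethasone libraries and at 19.1 to 355.5 FPKM in wild-type dexamethasone libraries. With vehicle it measured 0.395 to 4.76 FPKM in knockout replicates 1 to 3 and 95.8 FPKM in replicate 4, and 124 to 174 FPKM in wild-type replicates 1, 2 and 4 and 6.77 FPKM in replicate 3. Knockout vehicle replicate 4, wild-type dexamethasone replicate 4 (19.1 FPKM) and wild-type vehicle replicate 3 lay apart from their groups, and results of the Krüppel-like factor genes that turn on them are given with and without these 3 libraries. In such bulk samples fewer cells of a type and less RNA per cell cannot be told apart.

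The promoters of the 3 genes that rose with dexamethasone in both genotypes, Klf4, Klf11 and Klf13, are printed first, with that of Klf2 for contrast. Each runs from 250 bases before to 50 bases after the RefSeq start on GRCm38.p6, 5′ to 3′ on the gene's strand. This is the reference strain's sequence, not that of FVB/N.
Klf4, chr4:55532426-55532725, minus strand: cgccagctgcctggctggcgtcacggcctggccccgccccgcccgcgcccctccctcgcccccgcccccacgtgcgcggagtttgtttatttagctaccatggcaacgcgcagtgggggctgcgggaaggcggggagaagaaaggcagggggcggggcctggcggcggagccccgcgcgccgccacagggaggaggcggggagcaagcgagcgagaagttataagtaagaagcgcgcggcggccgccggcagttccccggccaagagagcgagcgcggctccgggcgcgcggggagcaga
Klf11, chr12:24651121-24651420, plus strand: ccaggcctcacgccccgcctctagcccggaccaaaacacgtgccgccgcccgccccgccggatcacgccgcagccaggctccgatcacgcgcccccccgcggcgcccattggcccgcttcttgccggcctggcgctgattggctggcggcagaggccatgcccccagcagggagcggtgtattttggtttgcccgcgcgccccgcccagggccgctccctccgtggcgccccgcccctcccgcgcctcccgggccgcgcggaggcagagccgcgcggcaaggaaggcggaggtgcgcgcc
Klf13, chr7:63938866-63939165, minus strand: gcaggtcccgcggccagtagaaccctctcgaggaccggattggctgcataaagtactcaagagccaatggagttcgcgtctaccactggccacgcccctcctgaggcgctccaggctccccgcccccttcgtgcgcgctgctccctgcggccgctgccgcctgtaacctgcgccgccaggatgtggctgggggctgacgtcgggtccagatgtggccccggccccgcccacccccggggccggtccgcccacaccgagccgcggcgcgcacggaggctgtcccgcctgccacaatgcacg
Klf2, chr8:72318812-72319111, plus strand: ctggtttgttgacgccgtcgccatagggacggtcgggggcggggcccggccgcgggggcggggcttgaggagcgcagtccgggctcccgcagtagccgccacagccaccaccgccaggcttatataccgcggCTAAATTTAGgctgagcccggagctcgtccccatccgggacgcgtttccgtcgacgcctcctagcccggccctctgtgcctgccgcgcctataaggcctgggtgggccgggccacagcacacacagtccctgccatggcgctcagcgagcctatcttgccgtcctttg
Capitals in Klf2 mark the single match, 118 bases before the start, to the element of MEF2 factors (CTA, 4 free bases, TAG), which carry signals from the kinase ERK5 to Klf2 and Klf4. Such a match was found in 3.69% of all 32851 promoter windows.

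Entries were found for 7 of the 9 genes, the other two being Klf10 and Klf16. Their windows held 58.3% (Klf7) to 77.7% (Klf11) G and C, with 74.3% in Klf4, 72% in Klf13 and 69.3% in Klf2, against a median of 52.7% over all windows. On both strands, 6 motifs were searched. No window of the 7 genes held the glucocorticoid receptor element (AGAACA, 3 free bases, TGTTCT, in 0.00913% of all windows), its looser form (GNACA, 3 free bases, TGTNC, 0.475%), the FOXO element GTAAACA (3.65%), the cyclic AMP element TGACGTCA (1.79%) or the CACCC box CCACACCC (3.56%). A FOXO element stood 100 bases before the start of Klf9. The looser receptor form contains the strict one.

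The levels of the 9 genes spanned more than an order of magnitude, and the same genes held the extremes in every group. Klf6 was the highest, at 65.0 ± 4.70 FPKM in knockout cells with dexamethasone and 57.3 ± 8.996 FPKM with vehicle, and at 65.1 ± 9.79 FPKM in wild-type cells with dexamethasone and 56.2 ± 11.4 FPKM with vehicle (SD, n = 4 each). Its lowest library lay above the highest library of Klf13, next in order in each group. At the other end Klf7 averaged 1.11 ± 0.192 and 1.17 ± 0.110 FPKM in knockout cells with dexamethasone and with vehicle, and 1.78 ± 0.413 and 1.23 ± 0.375 FPKM in wild-type cells with dexamethasone and with vehicle.

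Between these ends the order differed with treatment through Klf4. It held rank 3 of 9 in both dexamethasone groups and rank 7 in both vehicle groups. With dexamethasone in knockout cells Klf4 lay clear of its neighbours Klf13 above and Klf2 below, while in wild-type cells its libraries overlapped those of Klf2. With vehicle its libraries overlapped those of Klf3 above and Klf11 below in both genotypes. Klf10 and Klf16 overlapped in every group, Klf13 and Klf2 in knockout vehicle libraries, and Klf10 and Klf3 in wild-type dexamethasone libraries.

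**Figure D1:**
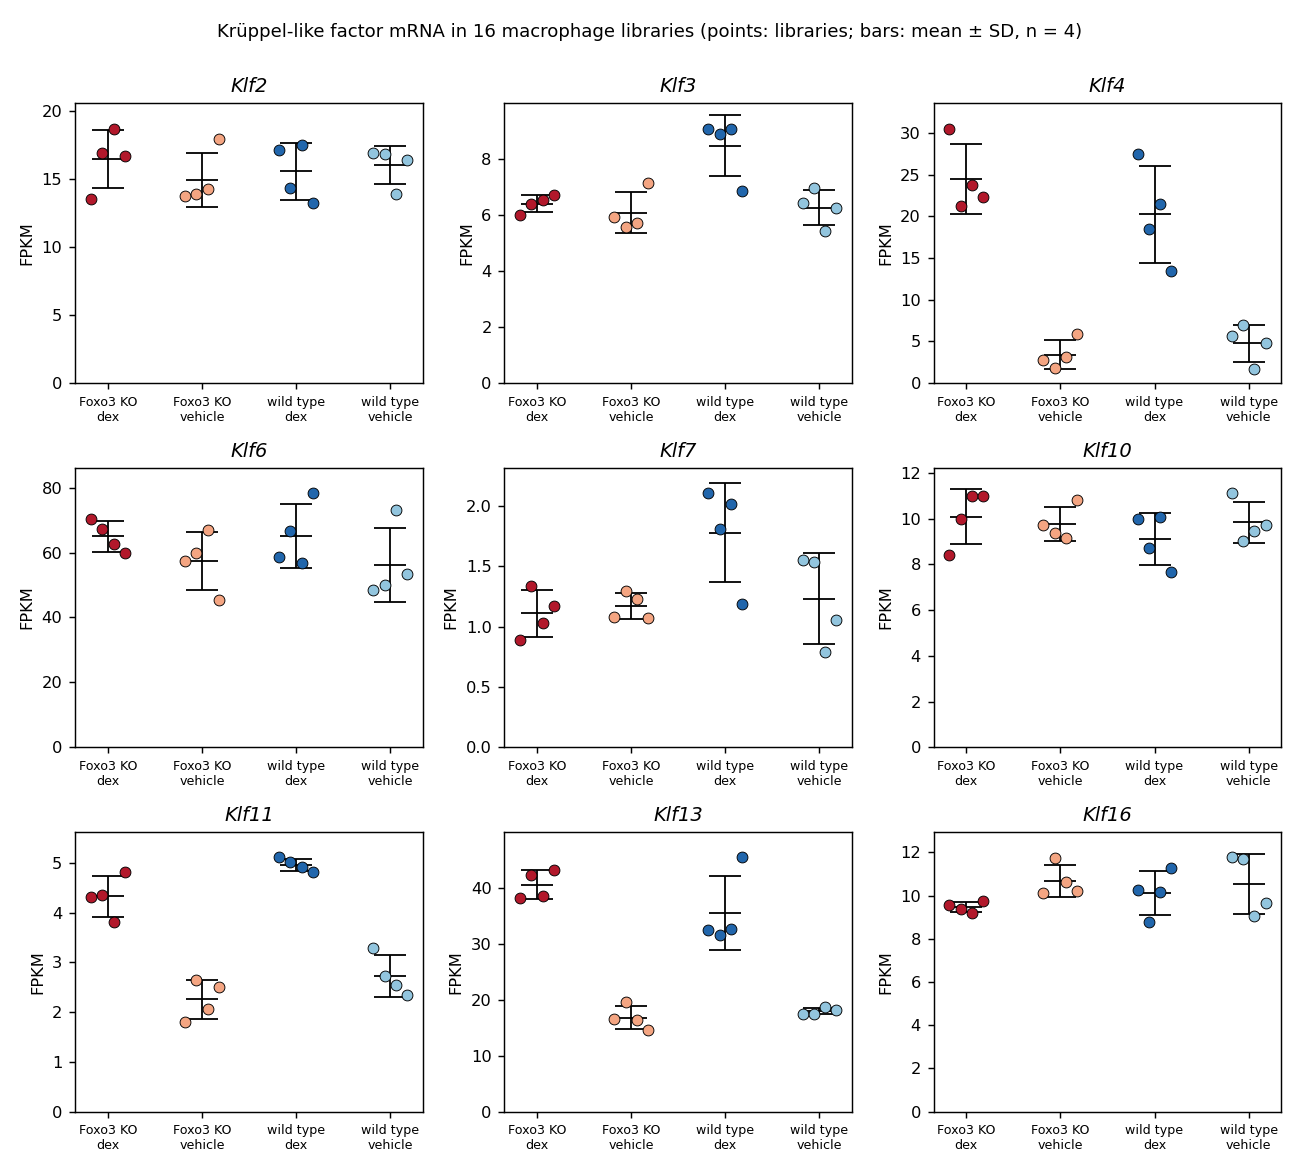
FPKM of each of the 9 Krüppel-like factor genes in every library (points), with the mean and SD of each group of 4 (bars), for Foxo3 knockout and wild-type macrophages with dexamethasone (dex) or vehicle; each panel has its own vertical axis from 0. For Klf4, Klf11 and Klf13 the dexamethasone libraries lie above all vehicle libraries, with Klf4 at 13.5 to 30.5 FPKM against 1.63 to 6.93 FPKM.

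In Foxo3 knockout macrophages dexamethasone raised 3 of the 9 genes and lowered none. Of all genes tested, 15.0% were called higher and 24.1% lower in this comparison, by limma at an adjusted p under 0.05. In wild-type macrophages it raised 4 of the 9 and lowered none, where 11.9% of all genes were called higher and 18.2% lower. The median log2 difference of the 9 genes was 0.13 in knockout cells, against -0.05 over all genes tested, and 0.32 in wild-type cells, against -0.02. Klf4, Klf11 and Klf13 were called in both genotypes and Klf3 in wild type.

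Klf4 (ENSMUSG00000003032, chromosome 4, 55527143 to 55532466, minus strand, GRCm38) encodes the factor tied to monocyte differentiation and alternative activation. In knockout cells it measured 30.5, 21.3, 23.8 and 22.3 FPKM with dexamethasone, against 2.72, 1.82, 3.12 and 5.92 FPKM with vehicle. In wild-type cells it measured 27.4, 18.5, 21.5 and 13.5 FPKM with dexamethasone, against 5.60, 6.93, 1.63 and 4.74 FPKM with vehicle. The dexamethasone libraries did not overlap the vehicle libraries in either genotype, and wild-type replicate 4 was the lowest of them. The ratio of the means was 7.21 in knockout and 4.28 in wild-type cells. On the log2(FPKM + 1) scale the differences were 2.60 ± 0.32 (SE) in knockout and 1.96 ± 0.32 in wild-type cells, with limma adjusted p of 2.26e-05 and 0.000397. The difference of these responses, knockout minus wild type, was 0.64 ± 0.46 (95% interval -0.33 to 1.62) and did not pass (limma adjusted p = 0.614).

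Klf13 (ENSMUSG00000052040, chromosome 7, 63886351 to 63938915, minus strand) encodes a Sin3a-binding factor that in human T lymphocytes activates the chemokine gene CCL5. It measured 38.2, 42.3, 38.6 and 43.3 FPKM in knockout dexamethasone libraries, against 16.6, 19.6, 16.3 and 14.6 FPKM in knockout vehicle libraries. The wild-type libraries gave 32.6, 31.5, 32.6 and 45.4 FPKM with dexamethasone, against 17.5, 17.5, 18.7 and 18.2 FPKM with vehicle. Again no dexamethasone library overlapped a vehicle one, and wild-type dexamethasone replicate 4 was the highest of all 16. The means stood in a ratio of 2.42 in knockout and 1.98 in wild-type cells. Klf13 rose by 1.23 ± 0.11 in knockout and 0.93 ± 0.11 in wild-type cells (log2, SE, limma adjusted p = 6.76e-07 and 1.64e-05). Knockout minus wild type, these responses differed by 0.30 ± 0.15 (95% interval -0.02 to 0.62), which did not pass (limma adjusted p = 0.455). A pair of unnamed gene models lies over the Klf13 locus, the higher at no more than 1.76 FPKM, and without a stated strand setting their reads cannot be told from those of Klf13.

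Klf11 (ENSMUSG00000020653, chromosome 12, 24651274 to 24662789, plus strand) is a gene induced by TGF-beta whose product represses through Sin3a. In knockout cells it measured 4.31, 4.36, 3.81 and 4.82 FPKM with dexamethasone, against 1.81, 2.66, 2.07 and 2.52 FPKM with vehicle. In wild-type cells the values were 5.11, 5.01, 4.91 and 4.82 FPKM with dexamethasone, against 3.30, 2.73, 2.55 and 2.34 FPKM with vehicle. The treatments did not overlap, and the wild-type dexamethasone libraries lay close together, with an SD of 0.125 FPKM. Klf11 rose by 0.71 ± 0.094 in knockout and 0.68 ± 0.094 in wild-type cells (log2, SE, limma adjusted p = 3.73e-05 and 8.14e-05), a ratio of means of 1.91 and 1.82. Knockout minus wild type, the responses differed by 0.03 (95% interval -0.26 to 0.31, limma adjusted p = 0.953).

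Klf9, outside the 9 genes but of the same Sin3a-binding group, measured 22.1 to 28.9 FPKM in knockout cells with dexamethasone against 3.14 to 5.40 FPKM with vehicle, and 25.0 to 31.1 FPKM in wild-type cells against 3.97 to 5.31 FPKM. Its log2 differences were 2.39 ± 0.13 in knockout and 2.40 ± 0.13 in wild-type cells (limma adjusted p = 8.23e-09 and 1.06e-08).

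Klf3 (ENSMUSG00000029178, chromosome 5, 64803388 to 64832901, plus strand), which represses through CtBP, was not called with dexamethasone in knockout cells and was called in wild-type cells. In knockout cells Klf3 measured 5.99, 6.39, 6.51 and 6.68 FPKM with dexamethasone, against 5.91, 5.56, 5.69 and 7.14 FPKM with vehicle. The wild-type libraries held 9.07, 8.86, 9.07 and 6.85 FPKM with dexamethasone, against 6.41, 6.94, 5.41 and 6.25 FPKM with vehicle. Wild-type dexamethasone replicate 4 fell within the vehicle range, so the groups overlapped in wild type as they did in knockout. The log2 difference in knockout cells was 0.07 ± 0.093 (SE, limma adjusted p = 0.609), while in wild-type cells Klf3 rose by 0.38 ± 0.093 (limma adjusted p = 0.00638, ratio of means 1.35). The difference between the responses, knockout minus wild type, was -0.31 ± 0.13 and did not pass (limma adjusted p = 0.371), so the genotypes were not shown to respond differently. Gene models that overlap Klf3 and Klf7 reached no more than 0.468 and 0.274 FPKM.

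The remaining genes did not pass in either genotype. Klf16 (ENSMUSG00000035397, chromosome 10, 80567124 to 80577321, minus strand), another Sin3a-binding factor, measured 9.54, 9.36, 9.19 and 9.76 FPKM in knockout cells with dexamethasone, against 10.1, 11.8, 10.6 and 10.2 FPKM with vehicle. Its knockout groups did not overlap, yet the log2 difference of -0.16 (95% interval -0.34 to 0.02) missed the threshold (limma adjusted p = 0.161). In wild-type cells it stood at 8.76 to 11.3 FPKM with dexamethasone and 9.07 to 11.8 FPKM with vehicle, with a difference of -0.05. Counting Klf16, 4 of the 9 genes had groups that did not overlap in knockout cells, where 40.5% of all genes tested did, and 3 of the 9 in wild-type cells, where 27.3% did.

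Klf10 (ENSMUSG00000037465, chromosome 15, 38291463 to 38300706, minus strand) is like Klf11 an early gene of TGF-beta signalling. It measured 8.43 to 11.0 FPKM in knockout cells with dexamethasone and 9.16 to 10.8 FPKM with vehicle, and 7.68 to 10.1 FPKM in wild-type cells with dexamethasone and 9.05 to 11.1 FPKM with vehicle. The log2 difference was 0.04 in knockout cells (95% interval -0.17 to 0.25) and -0.10 in wild-type cells (-0.31 to 0.10). Within this TGF-beta pair, only Klf11 was called.

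Klf2 (ENSMUSG00000055148, chromosome 8, 72319033 to 72321656, plus strand) restrains inflammatory activation of myeloid and endothelial cells. Its values were 13.5, 16.9, 18.7 and 16.7 FPKM in knockout cells with dexamethasone, against 13.7, 13.9, 14.2 and 17.9 FPKM with vehicle. In wild-type cells they were 17.1, 14.3, 17.5 and 13.2 FPKM with dexamethasone, against 16.9, 16.8, 13.9 and 16.4 FPKM with vehicle. The groups overlapped in both genotypes. The log2 difference was 0.13 in knockout cells (95% interval -0.11 to 0.37) and -0.05 in wild-type cells (-0.29 to 0.20), intervals that leave out the sizes seen for Klf4 in the same libraries.

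Klf6 (ENSMUSG00000000078, chromosome 13, 5861482 to 5870394, plus strand), which promotes inflammatory gene expression in macrophages, measured 70.3, 67.2, 62.6 and 59.7 FPKM in knockout cells with dexamethasone, against 57.4, 59.9, 66.8 and 45.2 FPKM with vehicle. The wild-type values were 58.7, 66.7, 56.8 and 78.3 FPKM with dexamethasone, against 48.5, 50.05, 73.0 and 53.3 FPKM with vehicle. Treatments overlapped, and the lowest or highest library of 3 of the 4 groups was the one that lay apart in Col1a1. The log2 difference was 0.19 ± 0.14 in knockout and 0.22 ± 0.14 in wild-type cells (SE, limma adjusted p = 0.316 and 0.273). With a score of 10 stromal markers as a covariate the differences were 0.18 in knockout and 0.30 in wild-type cells and both passed (limma adjusted p = 0.0225 and 0.00134); without the 3 libraries they were 0.08 in knockout (0.415) and 0.26 in wild type (0.0312).

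Klf7 (ENSMUSG00000025959, chromosome 1, 64029447 to 64122282, minus strand), known from neurons and adipocytes, rested on 111 to 305 reads per library. It measured 0.892, 1.34, 1.03 and 1.17 FPKM in knockout cells with dexamethasone, against 1.08, 1.29, 1.23 and 1.08 FPKM with vehicle. The wild-type libraries gave 2.11, 1.81, 2.02 and 1.19 FPKM with dexamethasone, against 1.55, 1.53, 0.790 and 1.05 FPKM with vehicle. Replicate 4 lay below the other wild-type dexamethasone libraries and within the vehicle range. The log2 difference was -0.04 in knockout cells (limma adjusted p = 0.830) and 0.32 ± 0.13 in wild-type cells (limma adjusted p = 0.0842). Without wild-type dexamethasone replicate 4 the wild-type value was 0.43 and passed (limma adjusted p = 0.0176), and without all 3 libraries it was 0.33 (0.0350).

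**Figure D2:**
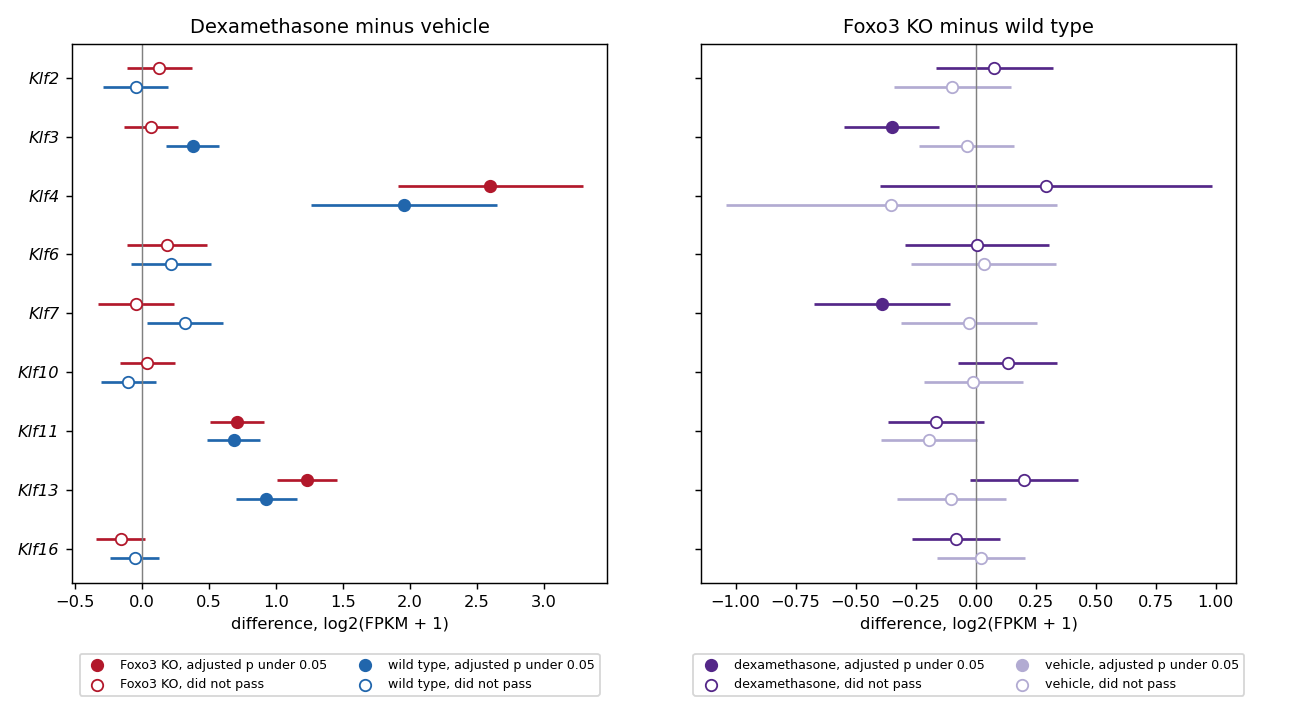
Differences on the log2(FPKM + 1) scale for the 9 genes, dexamethasone minus vehicle in each genotype (left) and Foxo3 knockout minus wild type in each treatment (right); lines are 95% intervals, filled points passed at a limma adjusted p under 0.05. Klf4, Klf11 and Klf13 are filled in both genotypes on the left, and on the right only Klf3 (-0.35) and Klf7 (-0.39) under dexamethasone are filled.

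The summed level of the 9 genes was 178 ± 3.11 FPKM in knockout cells with dexamethasone, against 122 ± 6.31 FPKM with vehicle, and 171 ± 8.46 FPKM in wild-type cells with dexamethasone, against 126 ± 6.01 FPKM with vehicle (SD, n = 4 each). The lowest dexamethasone library (164 FPKM) lay above the highest vehicle library (135 FPKM). Klf4 made up 13.7% ± 2.15 of this sum in knockout cells with dexamethasone, against 2.82% ± 1.60 with vehicle, and 11.9% ± 3.58 in wild-type cells, against 3.82% ± 1.88. Klf13 took 22.8% with dexamethasone and 13.7% with vehicle in knockout cells, and 20.7% and 14.3% in wild-type cells with dexamethasone and with vehicle. The share of Klf6 was 36.5% with dexamethasone and 46.7% with vehicle in knockout cells, and 38.0% and 44.6% in wild-type cells with dexamethasone and with vehicle. Shares add up to the whole, so a lower share of Klf6 or Klf2 does not mean a lower level.

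**Figure D3:**
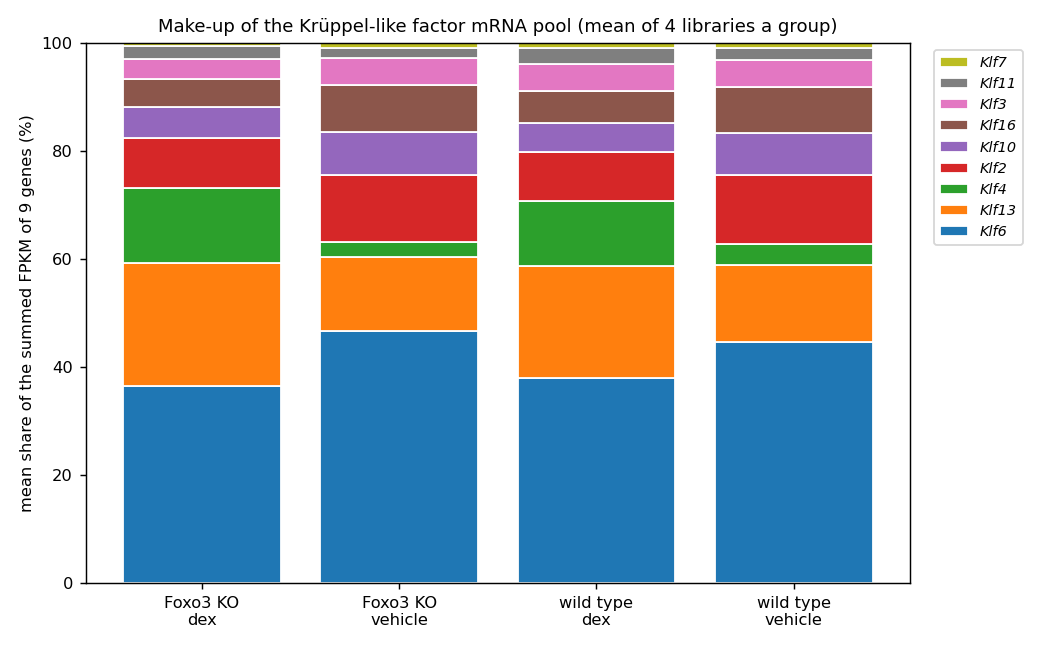
Mean share of each gene in the summed FPKM of the 9 Krüppel-like factor genes, as stacked bars for Foxo3 knockout and wild-type macrophages with dexamethasone (dex) or vehicle, 4 libraries each. Klf4 widens to 13.7% in knockout cells with dexamethasone, against 2.82% with vehicle, and to 11.9% in wild-type cells, against 3.82%.

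Foxo3 knockout macrophages were then set against wild-type ones within each treatment. With vehicle 0 of the 9 genes passed by limma, where 4.68% of all genes tested were called, and 0 had an unadjusted p under 0.05. No gene had groups free of overlap, as 10.6% of all genes did. Klf11 gave -0.19 (95% interval -0.39 to 0.01, limma adjusted p = 0.243) and Klf4 -0.35 (-1.04 to 0.34, limma adjusted p = 0.548). Voom on recovered reads also called 0. The other 7 genes lay between -0.10 (Klf13) and 0.03 (Klf6).

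Under dexamethasone 2 of the 9 genes were lower in knockout cells, where 26.7% of all genes were called and 12.4% were called lower. Klf3 averaged 6.39 ± 0.295 FPKM in knockout and 8.46 ± 1.08 FPKM in wild-type cells, and its groups did not overlap. The log2 difference was -0.35 ± 0.093 (SE, limma adjusted p = 0.0156). Klf7 averaged 1.11 ± 0.192 FPKM in knockout and 1.78 ± 0.413 FPKM in wild-type cells, with overlap, and differed by -0.39 ± 0.13 (limma adjusted p = 0.0429). Both calls lay near the threshold. That of Klf3 was lost without knockout dexamethasone replicate 1 or wild-type dexamethasone replicate 1 or 3, with log2 differences of -0.32 and adjusted p up to 0.0544. That of Klf7 was lost without any 1 of 10 libraries, with log2 differences of -0.33 to -0.44 and adjusted p of 0.0513 to 0.132. These were all 4 knockout dexamethasone replicates, knockout vehicle replicates 1 and 3, wild-type dexamethasone replicates 1, 2 and 3 and wild-type vehicle replicate 4.

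Klf11 groups were also free of overlap under dexamethasone, though the closest libraries of both lay at 4.82 FPKM after rounding. The knockout libraries ran from 3.81 FPKM up to that level and the wild-type ones from there to 5.11 FPKM, and the difference of -0.17 did not pass (limma adjusted p = 0.197). With Klf3 that made 2 of the 9 genes without overlap, against 26.4% of all genes tested. Klf13 was 0.20 higher in knockout cells and did not pass (limma adjusted p = 0.168). Without wild-type dexamethasone replicate 4, the library with the highest Klf13, that value was 0.32 and passed (limma adjusted p = 0.00696), and with the stromal score as covariate it was 0.00087 (0.998). Klf4, Klf6, Klf2, Klf10 and Klf16 gave values between -0.08 (Klf16) and 0.29 (Klf4), none past the threshold.

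The interaction, the dexamethasone difference in knockout minus that in wild type, called none of the 9 genes by limma, where 0.129% of all genes were called. Klf3 was the 1 gene with an unadjusted p under 0.05, and voom called 0. Values ran from -0.36 ± 0.19 for Klf7 (limma adjusted p = 0.476) to 0.64 ± 0.46 for Klf4.

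Several of these genes moved with fibroblast transcripts from library to library. The 4 vehicle libraries with Col1a1 at 95.8 FPKM or more held Klf4 at 4.74 to 6.93 FPKM, and the 4 with Col1a1 at 6.77 FPKM or less held it at 1.63 to 3.12 FPKM. This split cut across genotype, since knockout replicate 4 belonged to the high set and wild-type replicate 3 to the low one. Under dexamethasone the knockout libraries, with Col1a1 at 25.5 FPKM or less, held Klf4 at 21.3 to 30.5 FPKM, against 13.5 to 27.4 FPKM in the wild-type ones. The 3 highest Klf7 levels, 1.81 to 2.11 FPKM, and the 3 highest Klf3 levels, 8.86 to 9.07 FPKM, stood in wild-type dexamethasone replicates 1 to 3, which held Col1a1 at 159 FPKM or more. Klf6 ran the other way among vehicle libraries, at 45.2 to 53.3 FPKM in those high in Col1a1 and 57.4 to 73.0 FPKM in those low in it.

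**Figure D4:**
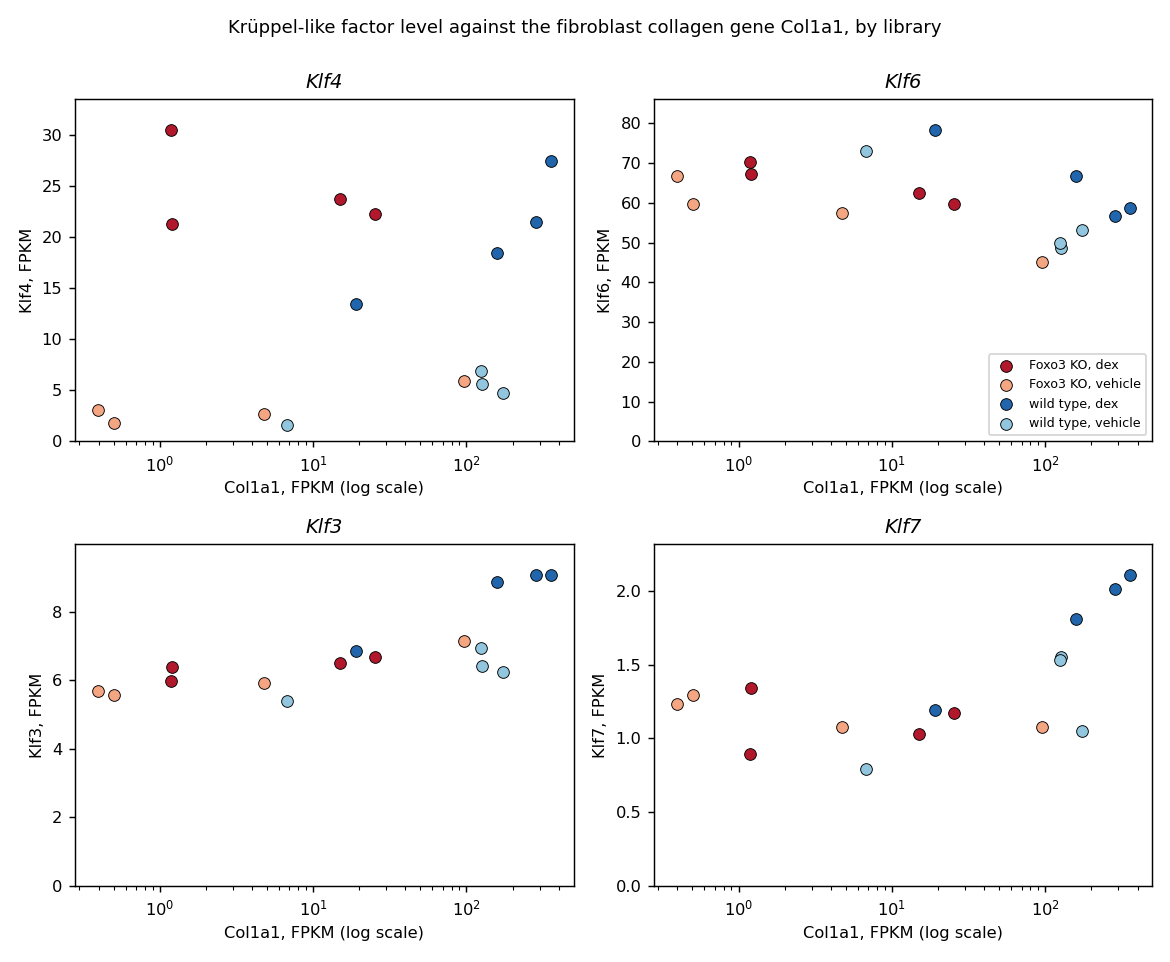
Klf4, Klf6, Klf3 and Klf7 (FPKM, vertical axes from 0) against the fibroblast collagen gene Col1a1 (FPKM, log scale) in each of the 16 libraries, coloured by genotype and treatment. Among vehicle libraries Klf4 is at 4.74 to 6.93 FPKM where Col1a1 is 95.8 FPKM or more and at 1.63 to 3.12 FPKM where it is 6.77 FPKM or less, while dexamethasone libraries are above both at every Col1a1 level.

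Over the whole list of 10 stromal markers, the summed level was 6.44 to 92.7 FPKM in knockout and 68.3 to 1145 FPKM in wild-type cells with dexamethasone, and 2.85 to 391 FPKM in knockout and 29.3 to 555 FPKM in wild-type cells with vehicle. None of the 10 was at 0 throughout a group. Of the 8 tested, 7 were called lower in knockout cells under dexamethasone and 0 with vehicle, with median log2 differences of -3.58 and -2.53. Under dexamethasone 12.4% of all genes were called lower, and with vehicle 4.68% were called in either direction. Endothelial markers, 8 in all, summed to 2.15 to 3.88 FPKM in knockout and 5.08 to 24.4 FPKM in wild-type cells with dexamethasone, and 7.48 to 11.7 FPKM in knockout and 11.3 to 18.7 FPKM in wild-type cells with vehicle. Of the 5 tested, 4 were called lower in knockout cells under dexamethasone, and 1 with the stromal covariate. In every knockout dexamethasone library 7 of the 8 lay below 1 FPKM, so most of those tested passed the filter through other groups. The part of these cells in the genotype differences of Klf3 and Klf7 was not tested.

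Leaving out the 3 libraries that lay apart changed the genotype comparisons. With vehicle 3 of the 9 genes then passed, where 34.0% of all genes were called: Klf4 at -0.93, Klf3 at -0.16 and Klf6 at 0.27, knockout minus wild type (limma adjusted p = 0.00158, 0.0431 and 0.0233). Under dexamethasone Klf3 gave -0.44, Klf7 -0.50 and Klf13 0.32 (3.33e-05, 0.00165 and 0.00204), where 44.3% of all genes were called. The interaction of Klf4 was 1.06 ± 0.25 and passed (limma adjusted p = 0.0256), where 6.22% were called. In the libraries left, however, all 8 tested stromal markers were called lower in knockout cells in both treatments, with medians of -4.43 under dexamethasone and -4.41 with vehicle, so genotype and stromal content cannot be told apart there.

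With the stromal score as a covariate over all 16 libraries, the calls of Klf3 (-0.11, limma adjusted p = 0.372) and Klf7 (-0.22, 0.459) under dexamethasone were lost. Klf4 (1.06, 0.0220), Klf2 (0.35, 0.0320) and Klf10 (0.33, 0.0449) passed as higher in knockout cells and Klf6 (-0.39, 0.00696) as lower, where 8.13% of all genes were called. The score was 0.609 to 2.43 in knockout dexamethasone libraries. In wild-type ones it was 4.47 to 4.97 in replicates 1 to 3 and 2.14 in replicate 4. The adjusted genotype values under dexamethasone thus lean on that 1 library and on a slope shared by all groups. Genotype and stromal content are hard to tell apart there too. With vehicle 0 of the 9 passed with the covariate, where 3.25% of all genes were called. The dexamethasone responses of Klf4, Klf11 and Klf13 passed under both settings, at 2.62 and 2.85 in knockout and 1.79 and 1.79 in wild-type cells for Klf4 with the covariate and without the 3 libraries.

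Among the other Krüppel-like factor genes, 2 of 8 passed the filter, Klf9 and Klf15. Klf15, a known glucocorticoid target in muscle and liver, measured 0.205, 0.131, 0.226 and 0.325 FPKM in knockout cells with dexamethasone, against 0.0416, 0.0216, 0.0413 and 1.35 FPKM with vehicle. Wild-type cells held 7.73, 4.25, 7.80 and 0.434 FPKM with dexamethasone, against 1.09, 1.41, 0.124 and 0.718 FPKM with vehicle. The high libraries were those with much Col1a1, and the libraries that lay apart in Col1a1 lay apart in Klf15 too. It was called with dexamethasone in wild-type cells (1.47 ± 0.47, limma adjusted p = 0.0290), a call lost without wild-type dexamethasone replicate 1, 2 or 3 or wild-type vehicle replicate 3 or 4, with values of 1.19 to 1.46 and adjusted p of 0.0563 to 0.0918. That call was also lost with voom, a pseudocount of 0.1, no filter, only the groups compared and the replicate block, with adjusted p of 0.0564 to 0.123. In wild-type cells Klf15 passed without the 3 libraries (1.85, limma adjusted p = 8.03e-06) and with the stromal score as covariate (1.22, 0.00315). Without wild-type dexamethasone replicate 4 it also passed (2.06, 0.000223). Under dexamethasone it was lower in knockout cells by limma (-2.01 ± 0.47, adjusted p = 0.00876), and that value was -0.83 (0.172) with the stromal score as covariate and -3.90 (0.0703) by voom. Without the 3 libraries Klf15 gave -2.60 under dexamethasone and -0.99 with vehicle, knockout minus wild type, and -1.61 for the interaction, and all 3 passed (limma adjusted p = 2.88e-07, 0.00108 and 0.00349). Over all 16 libraries the vehicle value of Klf15 was -0.48 (0.581) and the interaction -1.53 (0.386). Klf15 passed the filter on low values through its wild-type dexamethasone libraries. The filter thus favoured a rise in wild-type cells, a lower knockout value under dexamethasone and a negative interaction, and these directions lend no support. Klf1, Klf5, Klf8, Klf12, Klf14 and Klf17 did not pass the filter.

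Of the 9 SP factors, which bind similar GC-rich sites, Sp1, Sp2, Sp3 and Sp4 were tested. In knockout cells dexamethasone lowered Sp2 (-0.34, limma adjusted p = 0.00232). In wild-type cells it raised Sp4 (0.46, 0.00425) and Sp1 (0.19, 0.0205), the call of Sp1 being lost without dexamethasone replicate 4 (0.16, 0.0526) or vehicle replicate 1 (0.18, 0.0558). In knockout cells Sp4 gave 0.27 (0.0525), with groups that did not overlap, and passed under 9 of the alternatives. Sp3 gave 0.35 in knockout (0.0639) and 0.12 in wild-type cells (0.573), and the knockout value passed under 6 of the alternatives. Sp2 was also called lower in knockout cells under dexamethasone (-0.21, 0.0462), and that call was lost without any 1 of 9 libraries, with log2 differences of -0.18 to -0.23 and adjusted p of 0.0524 to 0.131. These were knockout dexamethasone replicates 1, 3 and 4, knockout vehicle replicate 1, wild-type dexamethasone replicates 1, 3 and 4 and wild-type vehicle replicates 1 and 4. It was also lost with no filter, only the groups compared, the replicate block, the stromal covariate and voom and without the 3 libraries, at -0.20 to -0.25 (0.0584 to 0.136). Sp3 gave 0.38 in that comparison (0.0573), and 0.44 without the 3 libraries, which passed (0.0135).

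Transcripts of partner proteins moved in both directions. Of 13 cofactors of these factors, 3 were called higher and 2 lower with dexamethasone in knockout cells, and 3 higher and 1 lower in wild-type cells, with medians of -0.02 and 0.02. Among all genes tested, 15.0% were called higher and 24.1% lower in knockout cells, and 11.9% and 18.2% in wild-type cells. Without the 3 libraries 0 cofactors were lower in wild-type cells. Sin3a, the corepressor bound by Klf10, Klf11, Klf13 and Klf16, rose in both genotypes, at 15.5 ± 0.886 FPKM with dexamethasone against 12.3 ± 0.708 FPKM with vehicle in knockout cells and 14.4 ± 0.825 FPKM against 11.3 ± 0.770 FPKM in wild-type cells (log2 0.31 and 0.33, limma adjusted p = 0.00148 and 0.00129). Ctbp2, a corepressor of the Klf3 kind, fell by 0.30 in knockout and 0.20 in wild-type cells (limma adjusted p = 0.00207 and 0.0287). Ctbp1 fell by 0.22 in knockout cells (0.0220) and gave -0.08 in wild-type cells (0.405). Crebbp, which encodes the acetyltransferase CBP, gave -0.09 in knockout cells (0.464) and rose by 0.44 in wild-type cells (limma adjusted p = 0.00146). The interaction called 0 of the 13 cofactors, so the genotypes were not shown to respond differently.

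Upstream of Klf2 and Klf4, 10 genes of the route through MEK5, ERK5 and MEF2 were tested. With dexamethasone 2 rose and 3 fell in knockout cells, and 1 rose and 1 fell in wild-type cells. The shares of all genes were 15.0% higher and 24.1% lower in knockout cells, and 11.9% and 18.2% in wild-type cells. Without the 3 libraries 6 of the 10 fell in knockout cells and 2 rose in wild-type cells, and with the stromal covariate 2 rose in wild-type cells. The kinase gene Map3k3 rose by 0.32 in knockout and 0.48 in wild-type cells (limma adjusted p = 0.0126 and 0.00131). Mapk7, which encodes ERK5, fell by 0.36 in knockout cells (0.00224) and gave -0.04 in wild-type cells (0.761). Mef2c gave -0.35 in knockout cells (0.0519) and fell by 0.67 in wild-type cells (0.00172). Map3k2 rose by 0.50 in knockout cells (limma adjusted p = 0.0258) and gave 0.24 in wild-type cells (0.291). Over all 16 libraries the interaction called 0 of these 10 genes, so a difference in response between genotypes was not shown. Without the 3 libraries it called 1 lower.

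Upstream of Klf10 and Klf11, 9 TGF-beta route genes were tested, of which 2 rose and 3 fell with dexamethasone in each genotype. Set against this, 15.0% of all genes rose and 24.1% fell in knockout cells, and 11.9% and 18.2% in wild-type cells. With the stromal covariate, and also without the 3 libraries, 2 of the 9 rose and 4 fell in each genotype. Over all 16 libraries the interaction called 1 of the 9 lower, where 0.129% of all genes were called. It also called 1 lower with the stromal covariate, where 111 of the 11654 genes were called. Without the 3 libraries it again called 1 lower, where 6.22% were called. The receptor gene Tgfbr2 measured 30.2 ± 1.24 FPKM with dexamethasone against 78.3 ± 3.82 FPKM with vehicle in knockout cells, and 40.9 ± 4.97 FPKM against 67.4 ± 2.30 FPKM in wild-type cells. It fell by 1.34 in knockout and 0.71 in wild-type cells (limma adjusted p = 1.10e-08 and 7.05e-06). The ligand gene Tgfb1 fell by 0.48 and 0.43 in knockout and wild-type cells (0.00130 and 0.00400). The transducer gene Smad4 rose by 0.34 and 0.38 (0.000277 and 0.000141), and Smurf2, a ubiquitin ligase of the route, rose by 0.75 and 0.92 (0.000809 and 0.000246). Klf11 was thus higher with the treatment under which Tgfbr2 and Tgfb1 were lower and Smad4 and Smurf2 higher. The part of this route in the rise of Klf11 was not tested.

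Several Krüppel-like factor genes are early response genes, so 15 immediate early genes were tested beside them. With dexamethasone 2 rose and 6 fell in knockout cells, and 1 rose and 4 fell in wild-type cells, with medians of -0.44 and -0.29. Over all genes, 15.0% rose and 24.1% fell in knockout cells, and 11.9% and 18.2% in wild-type cells. Egr2 measured 1.43 ± 0.323 FPKM with dexamethasone against 16.9 ± 4.87 FPKM with vehicle in knockout cells, and 1.92 ± 0.331 FPKM against 14.0 ± 4.35 FPKM in wild-type cells (log2 -2.84 and -2.33, limma adjusted p = 1.87e-07 and 2.02e-06). Atf3 fell by 2.13 in knockout and 1.60 in wild-type cells (3.00e-06 and 6.01e-05), and Fos by 1.23 and 0.93 (0.000122 and 0.00159). Jun fell by 0.78 in knockout cells (limma adjusted p = 0.000108) and gave -0.31 in wild-type cells (0.0533). Over all 16 libraries the interaction called 0 of the 15, so the responses were not shown to differ by genotype. Without the 3 libraries it called 1 higher and 3 lower. Under dexamethasone 4 of the 15 were lower in knockout than in wild-type cells and none higher, in the comparison in which 7 of 8 stromal markers were lower too. With the stromal covariate 2 were lower and none higher, and without the 3 libraries 9 were lower and 3 higher. With the covariate 10 of the 15 fell with dexamethasone in knockout cells and 7 in wild-type cells, and without the 3 libraries 8 and 7.

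Genes downstream in macrophages were described from 2 lists. Of 8 listed alternative activation genes linked to KLF4, 6 were tested, and 3 rose and 1 fell with dexamethasone in each genotype. By comparison, 15.0% of all genes rose and 24.1% fell in knockout cells, and 11.9% and 18.2% in wild-type cells. Without the 3 libraries 4 rose in knockout cells. Over all 16 libraries the interaction called 0 of the 6. With the stromal covariate it called 1 higher, where 111 of the 11654 genes were called. Without the 3 libraries it called 3 higher, where 6.22% were called. Cd163, a haemoglobin scavenger receptor, measured 12.7 ± 0.538 FPKM with dexamethasone against 2.12 ± 1.14 FPKM with vehicle in knockout cells, and 10.2 ± 1.52 FPKM against 2.16 ± 0.315 FPKM in wild-type cells (log2 2.197 and 1.83, limma adjusted p = 3.29e-07 and 3.29e-06). Chil3, a chitinase-like lectin, stood at 4.38 ± 1.16 FPKM against 0.0592 ± 0.0411 FPKM in knockout cells and at 1.79 ± 0.579 FPKM against 0.158 ± 0.204 FPKM in wild-type cells. It rose by 2.32 and 1.26 in knockout and wild-type cells (limma adjusted p = 1.78e-07 and 8.14e-05). Chil3 passed the filter on low values through its dexamethasone libraries, so the filter favoured a rise and its direction lends no support. Mrc1, the mannose receptor, rose by 0.51 and 0.67 (0.00174 and 0.000316), while Arg1 stayed below the filter.

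Of 12 listed inflammatory genes that KLF2 and KLF4 are known to restrain, 7 were tested. None of the 7 rose with dexamethasone, 2 fell in knockout cells and 3 in wild-type cells, with medians of -0.42 and -0.76. A fall was called for 24.1% of all genes in knockout cells and 18.2% in wild-type cells. With the stromal covariate 2 of the 7 fell in knockout and 6 in wild-type cells (medians -0.41 and -0.96), and without the 3 libraries 2 and 5 (medians -0.16 and -0.86). Tnf measured 0.571 ± 0.358 FPKM with dexamethasone against 7.80 ± 1.40 FPKM with vehicle in knockout cells, and 0.705 ± 0.147 FPKM against 6.37 ± 0.929 FPKM in wild-type cells. It fell by 2.50 in knockout and 2.11 in wild-type cells (limma adjusted p = 5.04e-08 and 3.97e-07). Cd40 fell by 0.81 and 0.86 (limma adjusted p = 0.000192 and 0.000162). It averaged 0.482 FPKM in knockout and 0.362 FPKM in wild-type cells with dexamethasone, against 1.60 and 1.48 FPKM with vehicle. Tnf and Cd40 passed the filter on low values through their vehicle libraries, so the filter favoured a fall and their direction lends no support. Ccl5, the chemokine gene that KLF13 activates in human T lymphocytes, gave -0.36 in knockout cells (0.269) and fell by 1.04 in wild-type cells (limma adjusted p = 0.00533), while Klf13 itself rose in both. The interaction called 0 of the 7 inflammatory genes, so their responses were not shown to differ by genotype. The part of the Krüppel-like factors in these changes was not tested.

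The genes whose levels ran closest to the 3 that rose in both genotypes were listed as a description, over the 16 libraries and by Pearson's r of log2(FPKM + 1). For Klf4 they were Lifr, the leukaemia inhibitory factor receptor (r = 0.983), and Ang, a secreted ribonuclease (r = 0.979). For Klf11 they were Dusp1, a phosphatase of MAP kinases (r = 0.961), and Nisch (r = 0.957), and for Klf13 Ap1b1, an adaptor subunit of clathrin coats, and Mertk, the receptor of macrophages for dying cells (r = 0.990 each). The 16 points share the treatment split and the scaling. After the group means were taken out, r was 0.889 for Lifr and 0.828 for Ang with Klf4, 0.846 for Ap1b1 and 0.893 for Mertk with Klf13, and 0.503 for Dusp1 and 0.516 for Nisch with Klf11. Lifr averaged 15.2 FPKM in knockout cells with dexamethasone against 2.13 FPKM with vehicle, and 10.8 FPKM against 2.52 FPKM in wild-type cells. Mertk averaged 111 FPKM against 26.6 FPKM in knockout cells and 101 FPKM against 32.8 FPKM in wild-type cells.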

How the data were processed

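RNA sequencing of 16 mouse macrophage libraries was taken from 1 table of FPKM values per library that the authors deposited, with no samples pooled. Tools listed with the build GRCm38, per the submitters' processing notes, are TopHat2 2.0.12, Bowtie2 2.2.3, DESeq2 and HTSeq 0.6.1. What each did, the annotation version and the strand setting are not stated there. GENCODE M21 (GRCm38) gave symbols and positions and matched 54495 of the 54532 identifiers. Promoters are RefSeq's, on GRCm38.p6.

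The FPKM behaved as whole reads over exon length: 96.3% to 96.7% of the positive values in a library came out whole within 0.05 reads. These recovered reads served for depth and for an alternative with voom. No 2 libraries were as alike as sampling noise would make them.

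Values were tested as log2(FPKM + 1), where the pseudocount of 1 understates changes of low genes. limma 3.58.1 in R 4.3.3 fitted 4 group means over all 16 libraries with an intensity trend, and two-sided p-values were adjusted by Benjamini-Hochberg over the 11654 genes in each of 5 comparisons, with a threshold of 0.05. Steps were tested on simulated data. Other steps used Python 3.11.15, pandas 2.3.3, scipy 1.17.1 and matplotlib 3.10.9.

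Groups and replicate numbers came from the labels. The 9 genes and 15 gene lists were chosen with earlier results of these data known. Genes named are the 9, other KLF and SP genes past the filter, from each pathway list its first gene and up to 3 with the smallest adjusted p among those called with dexamethasone, the first 2 of each marker list (1 marker list is not reported here), and the 2 genes closest to Klf4, Klf11 and Klf13. Alternatives were another pseudocount, 2 other filters, 2 scalings, a fit of only the groups compared, a replicate block, voom, a stromal score as covariate, 3 libraries left out and each library left out in turn.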

Additional observations from a re-analysis of the deposited data

Results flagged for a closer look

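Of 36 groups of 4 values, 9 genes in 4 groups, 4 held a library farther from the other 3 than Dixon's test allows at the 95% level. Chance alone flags about 1 group in 20. Klf2 measured 17.9 FPKM in knockout vehicle replicate 4, above the other 3 at 13.7 to 14.2 FPKM, and 13.9 FPKM in wild-type vehicle replicate 3, below the other 3 at 16.4 to 16.9 FPKM. Klf3 measured 6.85 FPKM in wild-type dexamethasone replicate 4, below the other 3 at 8.86 to 9.07 FPKM. Klf13 measured 45.4 FPKM in the same library, above the other 3 at 31.5 to 32.6 FPKM. All 4 values came from the 3 libraries that lay apart from their groups in Col1a1, at 95.8, 6.77 and 19.1 FPKM. The low value of Klf2 and that of Klf3 came from libraries low in Col1a1 for their group. The high value of Klf2 came from the library high in it. Klf13 ran the other way, its high value coming from a library low in Col1a1 for its group (19.1 FPKM). The part of stromal cells in these values was not tested.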

How the results depend on the processing

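Over 25 or 26 alternatives each, the dexamethasone responses of Klf4, Klf11 and Klf13 passed in all, at 2.41 to 2.94 in knockout and 1.62 to 2.22 in wild-type cells for Klf4, 0.64 to 0.94 and 0.63 to 0.87 for Klf11, and 1.17 to 1.36 and 0.81 to 1.01 for Klf13. Klf3 in wild-type cells passed in all 26, at 0.32 to 0.47. With one library left out the number of the 9 genes called stayed at 3 in knockout and was 4 to 5 in wild-type cells with dexamethasone, and 0 for knockout against wild type with vehicle and for the interaction. For knockout against wild type under dexamethasone it was 0 to 3, against 2 in the full fit: 0 without knockout dexamethasone replicate 1 or wild-type dexamethasone replicate 1 or 3, and 3 without wild-type dexamethasone replicate 4. That count was 1, Klf3, with no filter, a mean of at least 5 FPKM (which drops Klf7 and Klf11), quantile normalization, only the groups compared and the replicate block, and 4 with the stromal covariate. Leaving out the 3 libraries gave 3 for knockout against wild type with vehicle and 1 for the interaction, against 0 each. Klf6 under dexamethasone, knockout minus wild type, was 0.00 in the full fit and -0.39 with the covariate. The cause of these shifts was not tested.

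Of 1151 recomputed values of single genes, 1117 kept their side of the threshold, 19 lost it, 14 gained it and 1 reversed, and 43 changed sign with neither value past it. The number of all genes called moved by over 1.5 times in 3 comparisons. Knockout against wild type with vehicle had 545, against 244 with only the groups compared, 3958 without the 3 libraries and 278 to 1623 with one library left out. Under dexamethasone it had 3114, against 1954 at a mean of at least 5 FPKM, 948 with the covariate, 5158 without the 3 libraries and 1517 to 4070 with one left out. The interaction had 15, against 6 with no filter, 1 with the replicate block, 111 with the covariate, 725 without the 3 libraries, 4 by voom and 2 to 330 with one left out.

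Deviations of same-numbered libraries correlated at -0.685 to 0.732, so no steady pairing by replicate number was seen. The labels do not say what a shared number means, so a pairing was not excluded. With the replicate block the counts of the 9 genes were 3 and 4 for dexamethasone in knockout and wild-type cells, 0 and 1 for knockout against wild type with vehicle and with dexamethasone, and 0 for the interaction. The fit of only the groups compared gives no interaction. Klf4, Klf7 and Klf11 had as few as 86, 111 and 135 reads in a library, which limits their precision.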

Other observations

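Of the 10 macrophage markers, 2 were called higher and 6 lower with dexamethasone in knockout cells, and 1 higher and 7 lower in wild-type cells. For all genes the shares were 15.0% higher and 24.1% lower in knockout cells, and 11.9% and 18.2% in wild-type cells. Adgre1, which encodes F4/80, averaged 705 FPKM in knockout cells with dexamethasone against 1282 FPKM with vehicle, and 279.7 FPKM in wild-type cells against 615 FPKM. Csf1r, the receptor for macrophage growth factor, averaged 756 FPKM in knockout cells with dexamethasone against 608 FPKM with vehicle, and 700 FPKM in wild-type cells against 590 FPKM. Knockout against wild type, 5 of the 10 were called higher under dexamethasone and 1 with vehicle, Adgre1 in both. In either direction, 26.7% of all genes were called under dexamethasone and 4.68% with vehicle. With the stromal score as covariate 2 of the 10 were called higher under dexamethasone, where 8.13% of all genes were called. With vehicle that fit called 1 higher and 1 lower, where 3.25% were called. Without the 3 libraries apart in Col1a1, 7 were called higher under dexamethasone and 3 with vehicle, where 44.3% and 34.0% of all genes were called.

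Neutrophil markers, 8 in all, summed to no more than 4.22 FPKM in any library, with Ly6g at 0 in every library. The 8 lymphocyte markers summed to 5.44 to 7.95 FPKM in knockout cells with dexamethasone against 13.0 to 21.6 FPKM with vehicle, and 4.58 to 6.70 FPKM in wild-type cells against 13.1 to 15.2 FPKM. The 2 tested were called lower with dexamethasone in each genotype, where 24.1% of all genes were in knockout and 18.2% in wild-type cells. Cd79b fell by 0.58 (limma adjusted p = 0.00789 in knockout and 0.0103 in wild-type cells), at 2.22 FPKM against 3.81 FPKM in knockout and 0.812 FPKM against 1.71 FPKM in wild-type cells. It was also higher in knockout than in wild-type cells, by 0.81 with vehicle and 0.82 under dexamethasone (limma adjusted p = 0.00712 and 0.00250).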
